A study of Mus musculus with 17 samples.

Results

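Of the 9 genes described here, Agtr1a, Chrna1, Foxa2, Ect2, Anxa1, Cfb, Arhgdib, Aldh3a2 and Gdpd5, most are best known from tissues or cells other than cortical neurons. Most of the probe sets of the 9 lay near the top of every array in a set of amplification controls made from mouse cortex. The genes were chosen by this rank: they belong to the synaptic plasticity genes that the study listed among the highly expressed genes of C57BL/6 dendrites, and they were picked because they ranked near the top on most of the arrays analysed here. Of the 18193 genes with a probe set of 1 symbol, these are 9, and of the 45037 probe sets analysed they account for 10, because Anxa1 has 2 probe sets and each of the other 8 genes has 1. A probe set is the group of short probes on the array that is summarized to a value for a transcript.

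All arrays share the RNA of cortex from an adult female C57BL/6 mouse, with no treatment and no altered allele. Bulk mRNA (5 µg) was hybridized without amplification to 1 array. Aliquots of the same mRNA, diluted to 10, 1 or 0.1 pg, were amplified by repeated rounds of in vitro transcription (aRNA amplification). With 2 rounds there were 3 arrays at 1 pg, 3 at 0.1 pg and a single array at 10 pg. With 4 rounds there were 3 at each of the 3 inputs. Whether the labelling round is counted among the rounds is not given in the sources used here. Replicate arrays come from independent amplifications of a single mRNA isolation, so p-values measure technical spread alone and no error between animals can be given. A level here is a log2 value counted from the array median, after each array was scaled to a common range. The rank of a probe set is given as its percentile among all probe sets of the array, and the top 5% began at levels from 4.27 to 4.72, depending on the array.

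As background, the 9 genes have little in common in function. Agtr1a is the angiotensin II receptor that raises blood pressure through vessels, kidney and adrenal gland, and Chrna1 is the acetylcholine-binding subunit of the receptor at the neuromuscular junction. Foxa2 is a forkhead transcription factor of endoderm, liver and floor plate. Ect2 is an exchange factor that works at the cleavage furrow of dividing cells, and Arhgdib holds small GTPases inactive in blood cells. Anxa1 is a calcium-dependent membrane-binding protein that limits inflammation, and Cfb is the complement factor B made largely by the liver. Aldh3a2 oxidizes fatty aldehydes in many tissues and Gdpd5 is a membrane phosphodiesterase known for a role in neuronal differentiation, so that these 2 are not plainly genes of other tissues, and the brain also makes some RNA of several others.

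The tissue of the label was checked against markers. The 10 neuron markers had a median percentile of 94.7 on the bulk array, while the 11 skeletal muscle markers had 37.4, the 9 liver markers 40.6 and the 9 markers of dividing cells 18.4, beside 60.8 for all genes. The astrocyte markers had 91.8, those of oligodendrocytes 77.7 and those of endothelium 69.2. Those of microglia, also cells of cortex, had 45.4, below all genes and below the leukocyte (56.8) and epithelium (50.1) markers. Among the neuron markers, Tubb3, a neuronal tubulin, lay at a percentile of 11.1 on the bulk array. The arrays hold few distinct values, from 872 on the array of 10 pg after 2 rounds to 4345, so that many probe sets share a value. For the 9 genes some of these shared values are pointed out below, but not all.

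The probe sets of 7 of the 9 genes lay in the top 5% on all 17 arrays: Agtr1a, Chrna1, Ect2, Anxa1 (probe set 1448213_at), Arhgdib, Aldh3a2 and Gdpd5. Among all probe sets, 930 did so, which is 2.06%, and among all genes 719, which is 3.95%. Since this rank chose the genes, the count is a description and not a result. Foxa2 was in the top 5% on 14 arrays, Cfb on 6 and the second probe set of Anxa1 (1444016_at) on 5, so that the name "constantly top-ranked" did not hold for Foxa2 and Cfb.

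**Figure D1:**
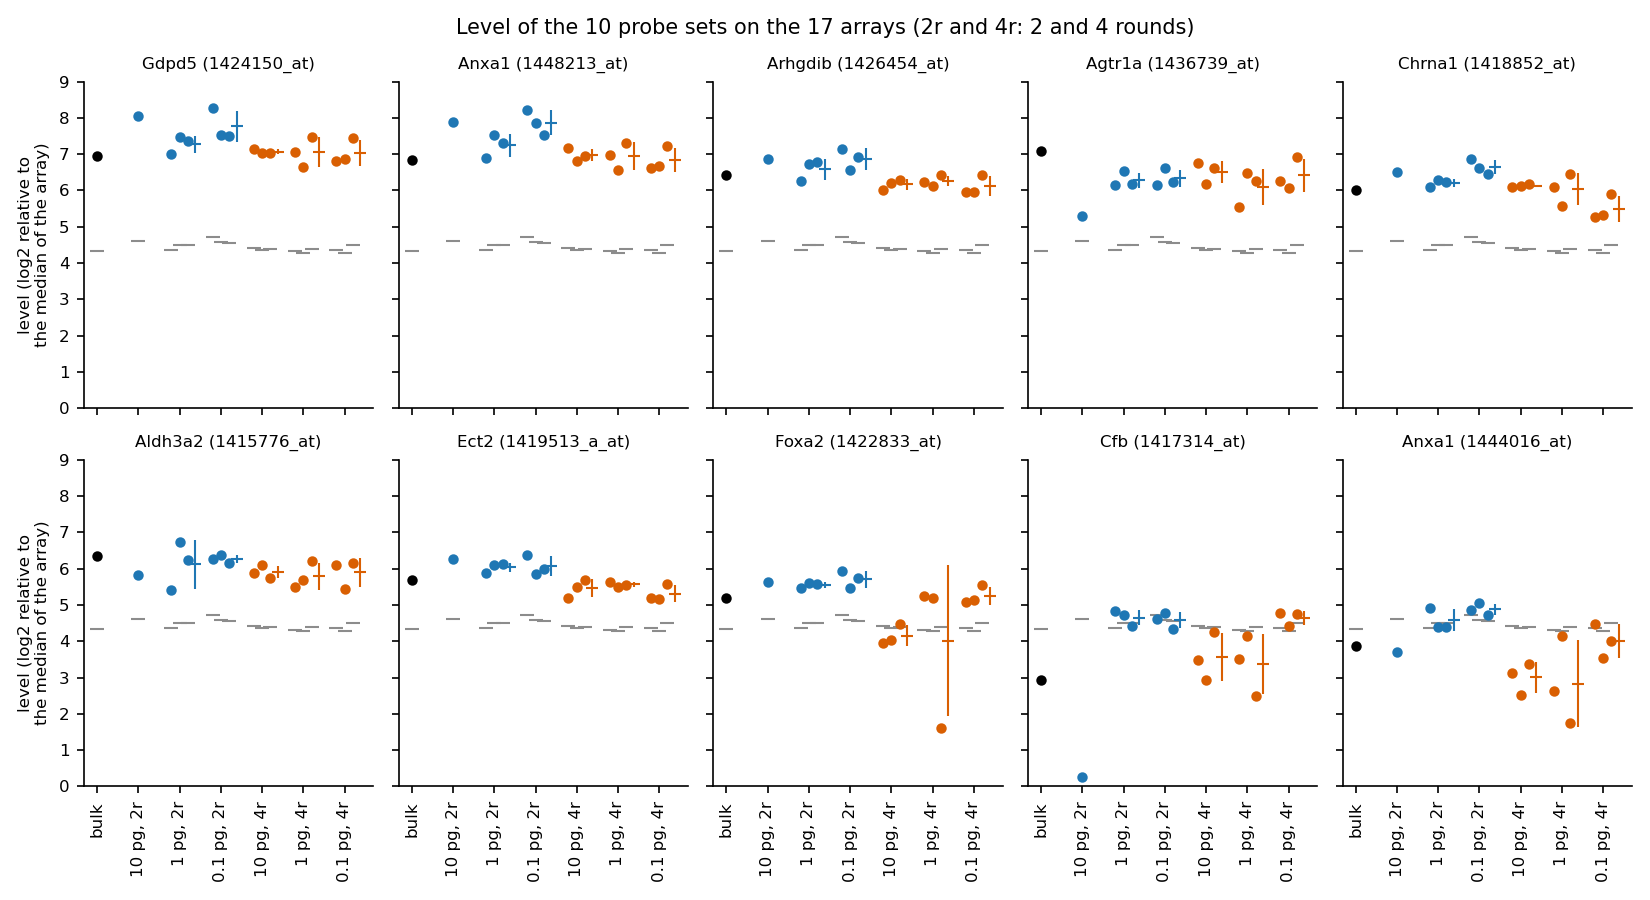
Level of the 10 probe sets of the 9 genes, in log2 counted from the array median, on each of the 17 arrays. Points are arrays (black, bulk; blue, 2 rounds; orange, 4 rounds), the cross with a bar beside each group of 3 is its mean and SD, and grey dashes mark where the top 5% of each array begins. The 5 probe sets of the upper row, Aldh3a2 and Ect2 lie above the dashes on all arrays, while Foxa2, Cfb and Anxa1 (1444016_at) fall below them on some.

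Among the receptors, Agtr1a (1436739_at) had its highest level on the bulk array, at 7.08. The array of 10 pg after 2 rounds had 5.30, a value that 14 other probe sets shared. After 2 rounds the arrays of 1 pg had 6.14, 6.52 and 6.17 and those of 0.1 pg had 6.15, 6.61 and 6.23. After 4 rounds the 3 inputs averaged 6.52 ± 0.30 (10 pg), 6.09 ± 0.49 (1 pg) and 6.41 ± 0.45 (0.1 pg) (SD, n = 3). None of the 16 amplified arrays exceeded bulk, but bulk is a single array. The share of all probe sets of which this holds is not given here, so nothing is read from it. The mean difference between amplified groups and bulk was -0.93 (SE 0.52), with an adjusted p of 0.463 in limma's moderated test, so it did not pass the threshold. The scaling changed its size, to -1.27 with the deposited values and -1.51 with median centering alone. The percentile of Agtr1a lay between 96.6 and 99.8. The probe set is annotated through an expressed sequence tag, a short read of a cDNA, and not through the full-length transcript.

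The other genes of the renin-angiotensin system did not share this rank. Of 9 genes in the list, 6 were measured, with a median percentile of 24.3 on the bulk array, and none was in the top 5% of bulk. Ace, which makes angiotensin II, had the highest mean level at 1.08, and Enpep, which degrades it, the lowest at -1.44. None of the 6 passed the threshold in any comparison of input or rounds. The genes whose levels followed Agtr1a most closely over the 17 arrays were Dusp8, a phosphatase of MAP kinases (Pearson's r = 0.84, and 0.90 with the deposited values), and Zdhhc15, a palmitoyltransferase (0.81 and 0.74). For each gene such r are given in this order, as descriptions over arrays that share a scaling. The mean level of Zdhhc15 was -0.79, below the median of the arrays.

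Chrna1 (1418852_at) had a level of 6.01 on the bulk array and 6.51 on the array of 10 pg after 2 rounds. The arrays of 1 pg after 2 rounds had 6.09, 6.29 and 6.23 and those of 0.1 pg 6.86, 6.63 and 6.46. After 4 rounds the values were 6.09, 6.11 and 6.17 for 10 pg, 6.09, 5.56 and 6.44 for 1 pg, and 5.27, 5.31 and 5.90 for 0.1 pg. The groups therefore ran from 5.49 ± 0.35 at 0.1 pg after 4 rounds to 6.65 ± 0.20 at 0.1 pg after 2 rounds (SD, n = 3), and the means of the groups between them, 6.03 ± 0.44 (1 pg, 4 rounds), 6.12 ± 0.04 (10 pg, 4 rounds) and 6.20 ± 0.10 (1 pg, 2 rounds), differed by less than the largest of their SDs. A test for any difference among the 7 groups gave an adjusted p of 0.282 (limma, moderated F). Chrna1 stayed between percentiles of 97.4 and 99.3.

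The partners of Chrna1 in the muscle receptor and at the synapse of muscle lay lower, with a median percentile of 52.7 on the bulk array for the 7 genes of the list. Dok7, which activates the kinase Musk at the neuromuscular junction, was the exception: it was in the top 5% on all 17 arrays, with a mean level of 5.90. Rapsn, the anchor of the receptor, had the lowest mean at -0.54, and Chrnd, the delta subunit, had a mean of 1.51. Chrnb1, the beta subunit, fell by 2.52 after 4 rounds relative to 2 rounds (SE 0.36, adjusted p = 0.00214, limma). It averaged 2.50 ± 1.09 at 0.1 pg after 2 rounds and -1.13 ± 0.23 at the same input after 4 rounds (SD, n = 3). Over the 17 arrays, the levels of Mtdh (r = 0.98 and 0.95) and Atp1b2, a subunit of the sodium pump (0.96 and 0.91), followed Chrna1 most closely.

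Foxa2 (1422833_at) had a level of 5.19 on the bulk array, 5.63 on that of 10 pg after 2 rounds, 5.47, 5.59 and 5.58 at 1 pg, and 5.93, 5.46 and 5.74 at 0.1 pg. After 4 rounds it had 3.95, 4.04 and 4.48 at 10 pg, 5.24, 5.19 and 1.60 at 1 pg, and 5.09, 5.14 and 5.54 at 0.1 pg. Its 3 arrays outside the top 5% were replicates 1 and 2 of 10 pg after 4 rounds, where the limit was 4.42 and 4.37, and replicate 3 of 1 pg after 4 rounds, where it was 4.38. Replicate 3 of 10 pg lay just inside, at 4.48 against a limit of 4.39. The value of 1.60 was shared by 79 other probe sets of that array. It brought the SD of its group to 2.09, while the other 2 arrays of the group lay among those of 0.1 pg. The adjusted p for any difference was 0.250.

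Among the regulators of endoderm and floor plate, 7 of 9 genes were measured. Shh, a signal of the floor plate, had the highest mean level at 4.76 and was in the top 5% on 13 arrays, and Hnf4a, a liver regulator, was on 12. Foxa1, the closest relative of Foxa2, had the lowest mean level of the list at -0.41. Foxa3 fell by 1.89 (SE 0.37, adjusted p = 0.0134) and Gata4, a regulator of heart and endoderm, fell by 2.16 (SE 0.38, adjusted p = 0.00776) after 4 rounds relative to 2 (limma). Bmper, a modulator of bone morphogenetic proteins, had the pattern most like Foxa2 (r = 0.98 under both), before Lcorl (0.97 under both). The array on which Foxa2 had 1.60, beside its mean level of 4.99, weighs heavily in these r. They were not computed without that array.

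Ect2 (1419513_a_at) had levels of 5.69 on the bulk array and 6.26 at 10 pg after 2 rounds. Its other arrays after 2 rounds had 5.88, 6.09 and 6.13 (1 pg) and 6.38, 5.85 and 5.99 (0.1 pg), and its arrays after 4 rounds had 5.20, 5.50 and 5.70 (10 pg), 5.64, 5.50 and 5.55 (1 pg) and 5.20, 5.16 and 5.58 (0.1 pg). At 1 and 0.1 pg, each array after 4 rounds lay below each array after 2 rounds, as the arrays of 1.83% of all probe sets were apart in either direction, but under each of the other 3 scalings the arrays of Ect2 overlapped. The difference was -0.61 (SE 0.26) with an adjusted p of 0.175, and -0.33 with the deposited values. The percentile lay between 97.1 and 98.7, and the adjusted p for any difference was 0.362.

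None of the 9 cytokinesis genes listed beside Ect2 was in the top 5% of bulk. Racgap1, which binds Ect2 at the spindle midzone, had the highest mean level at 1.97 and Cep55, of the midbody, the lowest at -1.49. Cit, the citron kinase, rose by 2.66 from 10 to 0.1 pg after 4 rounds (SE 0.64, adjusted p = 0.0172, limma). Most like Ect2 in pattern were Eif4a1, a helicase of translation initiation (r = 0.94 and 0.87), and Ptprn, a protein of secretory granules (0.93 and 0.83).

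Arhgdib (1426454_at) had a bulk level of 6.43 and lay between 5.96 and 7.15 over the 17 arrays, with percentiles from 98.8 to 99.5. Its groups averaged 6.58 ± 0.29 (1 pg, 2 rounds), 6.88 ± 0.30 (0.1 pg, 2 rounds), 6.17 ± 0.15 (10 pg, 4 rounds), 6.25 ± 0.14 (1 pg, 4 rounds) and 6.12 ± 0.28 (0.1 pg, 4 rounds) (SD, n = 3). The 3 groups after 4 rounds lay within 1 SD of each other, and the adjusted p for any difference was 0.468. With the deposited values its SD over the 17 arrays was 0.20, compared with a median of 0.26 for the 930 probe sets always in the top 5% and 0.87 for all.

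The 7 measured genes listed beside Arhgdib ranked higher than the other pathway lists, with a median percentile of 90.8 on the bulk array, where Cdc42 was in the top 5%. None was there on all arrays, and Rac2, a GTPase of blood cells, had the highest mean level at 3.43. Rac1 and Cdc42, small GTPases of the cytoskeleton, went opposite ways from 10 to 0.1 pg after 4 rounds. Rac1 fell by 3.12 (SE 0.74, adjusted p = 0.0154) and Cdc42 rose by 2.19 (SE 0.59, adjusted p = 0.0297, limma for both). Of the 8 leukocyte markers measured, Laptm5, a lysosomal membrane protein, was in the top 5% on all arrays with a mean level of 8.80, while Ptprc, the CD45 antigen, had a mean of -0.96. Ptprn (r = 0.93 and 0.74) and Arih1, a ubiquitin ligase (0.93 and 0.69), had the patterns most like Arhgdib.

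Anxa1 was the gene for which 2 probe sets could be compared, and they behaved differently. The probe set 1448213_at had a level of 6.84 on the bulk array and 7.88 at 10 pg after 2 rounds. It had 6.90, 7.52 and 7.29 at 1 pg and 8.21, 7.86 and 7.53 at 0.1 pg after 2 rounds. After 4 rounds it had 7.16, 6.82 and 6.94 at 10 pg, 6.98, 6.55 and 7.31 at 1 pg, and 6.62, 6.68 and 7.23 at 0.1 pg. It was in the top 1% on all 17 arrays, and its adjusted p for any difference was 0.241.

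The second probe set, 1444016_at, had 3.86 on the bulk array and 3.70 at 10 pg after 2 rounds, where 87 other probe sets shared the value. It had 4.92, 4.40 and 4.40 at 1 pg and 4.86, 5.04 and 4.72 at 0.1 pg after 2 rounds. After 4 rounds it had 3.12, 2.53 and 3.37 at 10 pg, 2.62, 4.13 and 1.74 at 1 pg, and 4.47, 3.54 and 4.01 at 0.1 pg. The value of 1.74 was shared by 71 other probe sets of its array. This probe set ranged from a percentile of 82.8 to 96.5, and like Agtr1a it is annotated through an expressed sequence tag. It differed among the 7 groups with an adjusted p of 0.0451, a call lost under the other 3 scalings (adjusted p from 0.0767 to 0.102) and in 14 of the 15 fits that left out 1 array of a group of 3 (0.0549 to 0.0948, limma for all).

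The gap between the 2 probe sets of Anxa1 on the same array ran from 1.98 to 5.57, with a median of 3.14. Over the 17 arrays their levels had r = 0.31, and r = -0.03 with the deposited values. Levels of different probe sets are not on a common scale of transcript amount, so the change of the gap from array to array is the measurement and not its size. Whether the 2 probe sets measure the same transcript was not tested.

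Among the annexins and the receptors of Anxa1, 11 of 13 genes were measured, with a median percentile of 54.4 on the bulk array. Anxa9 was in the top 5% on all 17 arrays with a mean level of 5.70, and Anxa3 had the lowest mean at -1.09. Anxa10 fell by 2.11 after 4 rounds relative to 2 (SE 0.44, adjusted p = 0.0187, limma). Fpr2, a receptor of Anxa1 on blood cells, had a mean level of 1.69. The closest patterns to the first probe set of Anxa1 were those of Hmmr, a hyaluronan receptor of dividing cells (r = 0.99 and 0.96), and Ang4, an intestinal ribonuclease (0.99 and 0.95), both of which kept percentiles above 99.

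Cfb (1417314_at) had an SD of 1.19 over the 17 arrays, which 1 array decided: without that of 10 pg after 2 rounds, left out after the data were seen, it was 0.77, below the 1.06 of Foxa2. Cfb had 2.93 on the bulk array and 0.27 at 10 pg after 2 rounds, where 2652 other probe sets shared its value. The arrays after 2 rounds had 4.82, 4.72 and 4.42 at 1 pg and 4.61, 4.78 and 4.35 at 0.1 pg. Those after 4 rounds had 3.49, 2.94 and 4.26 at 10 pg, 3.52, 4.14 and 2.50 at 1 pg, and 4.78, 4.43 and 4.75 at 0.1 pg. The value of 2.50 was shared by 34 other probe sets of its array. The bulk array and that of 10 pg after 2 rounds were thus among the lowest, 14 of the 16 amplified arrays lay above bulk, and the 3 arrays of 0.1 pg after 4 rounds all lay above those of 10 pg. In that comparison the arrays of 40.3% of all probe sets did not overlap. Cfb differed among the 7 groups with an adjusted p of 0.00241, and with 0.0683 when the array of 10 pg after 2 rounds was left out. The difference between 0.1 and 10 pg after 4 rounds was 1.09 (SE 0.46) with an adjusted p of 0.154.

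Of the 12 complement genes listed, 8 were measured. Their median percentile on the bulk array was 55.7, and none was in its top 5%. C1qc, made by microglia, had the highest mean level at 2.80 and C1qb the lowest at -0.72. C2, the counterpart of Cfb in the classical pathway, rose by 2.20 from 10 to 0.1 pg after 4 rounds (SE 0.58, adjusted p = 0.0263, limma). The closest patterns to Cfb were those of Crat, carnitine acetyltransferase (r = 0.97 under both), and Hoxa5 (0.96 and 0.93). On their lowest arrays Crat had a percentile of 26.5 and Cfb of 59.6. The array of 10 pg after 2 rounds, where Cfb had 0.27 beside its mean level of 3.86, weighs heavily in the r of Cfb. These r were not computed without that array.

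Aldh3a2 (1415776_at) had a level of 6.34 on the bulk array and lay between 5.40 and 6.73 over all arrays, both ends being arrays of 1 pg after 2 rounds (5.40, 6.73 and 6.23). Its groups after 4 rounds averaged 5.90 ± 0.17 (10 pg), 5.79 ± 0.38 (1 pg) and 5.90 ± 0.41 (0.1 pg) (SD, n = 3). The adjusted p for any difference was 0.907. The other aldehyde dehydrogenases had a median percentile of 61.1 on the bulk array (14 genes), although Aldh18a1, an enzyme of proline synthesis, was in the top 5% on all arrays with a mean level of 6.47. Aldh6a1 had the lowest mean at -0.97, and Aldh1b1 fell by 1.42 after 4 rounds relative to 2 (SE 0.31, adjusted p = 0.0211, limma). Aldh3a2 had no close companion: the most similar patterns, of Slc15a1 and Wfdc21, had r = 0.73 and 0.72, and 0.37 and 0.32 with the deposited values.

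Gdpd5 (1424150_at) was, with Anxa1 (1448213_at), in the top 1% on all 17 arrays. It had 6.95 on the bulk array, 8.04 at 10 pg after 2 rounds, 7.01, 7.46 and 7.36 at 1 pg, and 8.26, 7.54 and 7.50 at 0.1 pg. After 4 rounds it had 7.14, 7.04 and 7.03 at 10 pg, 7.07, 6.65 and 7.47 at 1 pg, and 6.80, 6.87 and 7.45 at 0.1 pg. The 3 arrays of 0.1 pg after 2 rounds lay above those of the other groups of 3, which overlapped. With the deposited values they were not apart: replicate 2 of 0.1 pg had 12.96, below the 13.30 of replicate 3 of 1 pg after 4 rounds. The adjusted p for any difference was 0.416 (limma, moderated F), and nothing is read from the separation. Of its family, 4 of 6 listed genes were measured, with a median percentile of 53.8 on the bulk array, and Gdpd2 had the lowest mean level at -0.36. Gdpd3, the highest at 2.68, rose by 3.63 from 10 to 0.1 pg after 4 rounds (SE 0.66, adjusted p = 0.00329, limma), while Gdpd5 differed by -0.03 (SE 0.40). Following Gdpd5 most closely were Tapbp, a chaperone of antigen presentation (r = 0.97 and 0.87), and 2310040G24Rik (0.97 and 0.85).

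**Figure D2:**
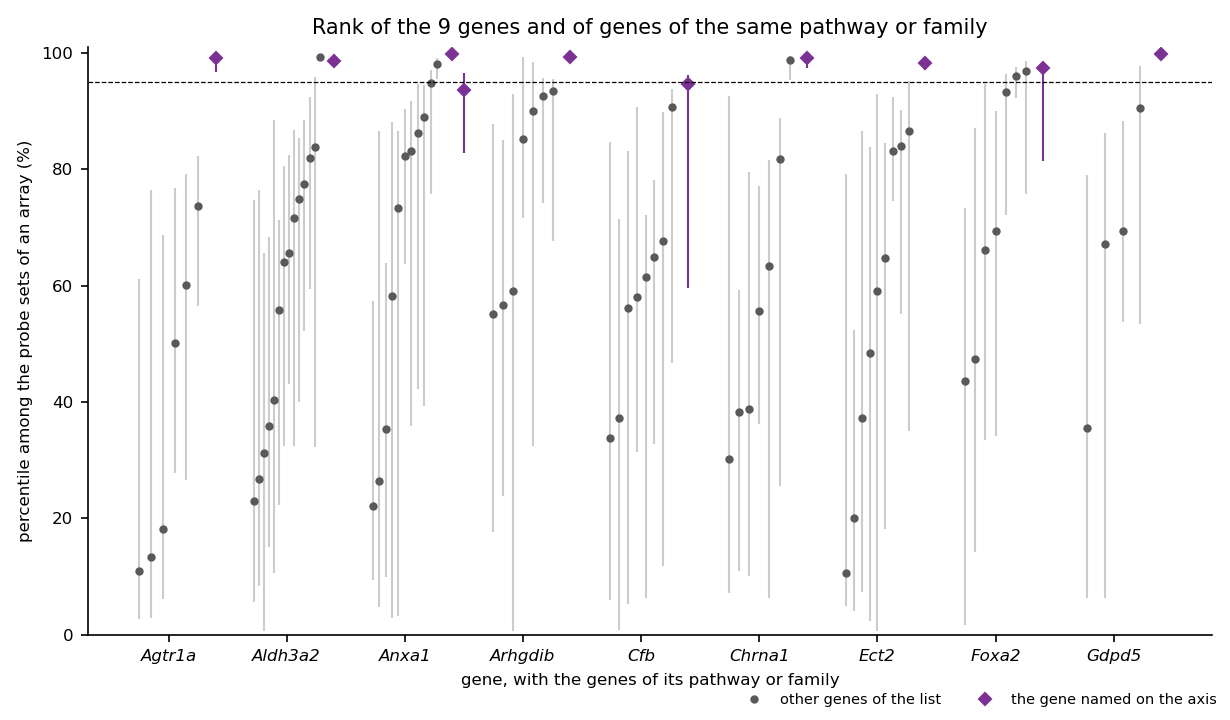
Percentile among the probe sets of an array for each of the 9 genes (purple diamonds) and for the genes of its pathway or family (grey points), with the median over the 17 arrays and a line from the lowest to the highest array. The dashed line marks the top 5%, and Anxa1 has 2 diamonds. Of the 72 pathway and family genes, Dok7, Anxa9 and Aldh18a1 have lines that stay above the dashed line.

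Together the pathway and family lists held 72 genes, of which 3 were in the top 5% on all arrays (4.17%), beside 3.95% of all genes. The 78 marker genes of cell types held 4 (5.13%), namely Cx3cr1, Laptm5, Epcam and Krt5. The other 29 measured genes of the plasticity list from which the 9 were taken held 17 (58.6%), and their median percentile on the bulk array was 98.5. That list was made from highly expressed genes in dendrites, so its rank here is not independent of the choice. The lists were drawn up with earlier results of these arrays known.

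The spread over the arrays was small at the levels where these genes lay. The 7 probe sets that were always in the top 5% had an SD over the 17 arrays between 0.36 and 0.48, all below the 5th percentile of the SD of all probe sets (0.50). With the deposited values this did not hold for Agtr1a, whose SD was 0.53, with 6.82% of all probe sets having a smaller SD. For the others of the 7 that share was at most 1.53%. The 930 probe sets that were always in the top 5% had a median SD of 0.39 themselves. Within that set, 40.1% had a smaller SD than Arhgdib and 85.9% a smaller SD than Anxa1 (1448213_at). Foxa2 (SD 1.04), Cfb (1.19) and Anxa1 (1444016_at, 0.94) had mean levels between 3 and 5, where the median SD of all probe sets was 1.17 (3 to 4) and 0.91 (4 to 5).

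**Figure D3:**
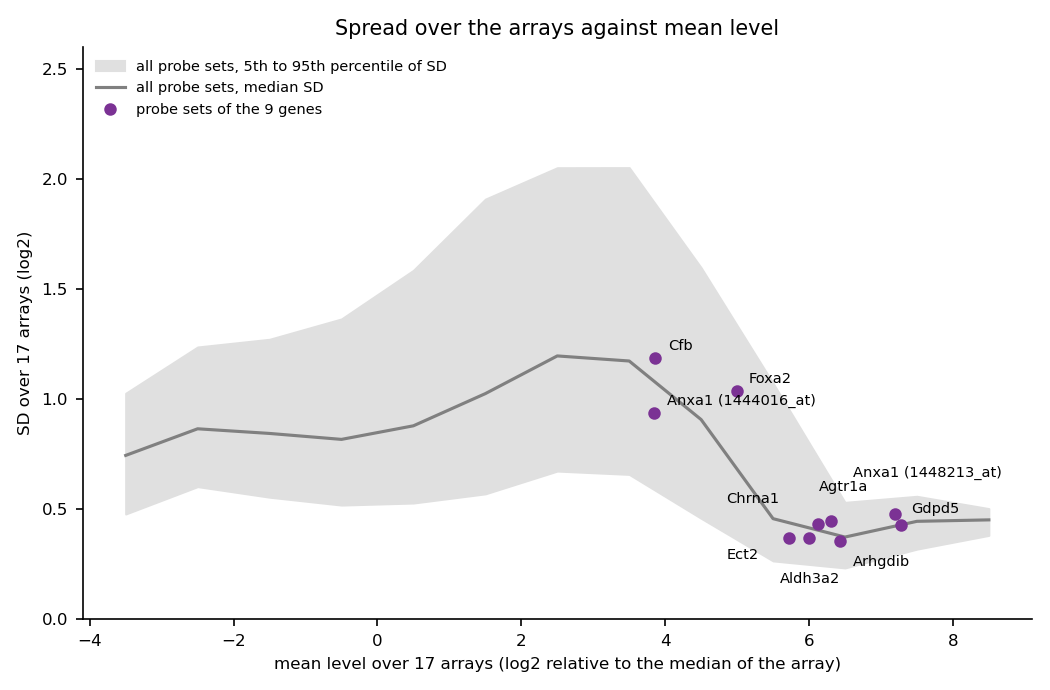
SD over the 17 arrays (log2) against the mean level (log2 above the array median) for the 10 probe sets, with the median SD of all probe sets (line) and their 5th to 95th percentile (grey) in steps of 1 in level. The median SD of all probe sets falls from 1.17 at levels of 3 to 4 to 0.37 at 6 to 7, and the 7 probe sets with levels above 5 lie near this line.

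Some of the 7 moved together from array to array. The 21 pairs among them had r from -0.29 to 0.96 with a median of 0.53, and with the deposited values from -0.54 to 0.83 with a median of 0.33. Gdpd5 and Anxa1 (1448213_at) had 0.96 (0.82 with the deposited values) and Ect2 and Arhgdib had 0.93 (0.83). Agtr1a went its own way, with r between -0.29 and 0.43 against the other 6. The points share the scaling of their array, and the scaling moves all high levels of an array together, so these values are descriptions and carry no test.

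The comparisons of amplification, rounds and input asked which levels changed with the handling of the RNA. For the 10 probe sets, 0 passed the threshold between amplified groups and bulk (limma), where 1.10% of all probe sets did, and 0 of the 10 had an unadjusted p under 0.05, beside 13.4% of all. Between 4 and 2 rounds at 1 and 0.1 pg, 0 passed, beside 3.91% of all probe sets, and 4 had an unadjusted p under 0.05, beside 21.8%. Between 0.1 and 1 pg, 0 passed, beside 1.24%, and 0 had an unadjusted p under 0.05, beside 15.1%. Between 0.1 and 10 pg after 4 rounds, 0 passed, beside 8.86%, and 1 had an unadjusted p under 0.05, beside 25.4%. In the test for any difference among the 7 groups 2 passed, Cfb and Anxa1 (1444016_at), beside 25.5% of all probe sets. Genes picked for a high rank on most arrays could hardly differ widely between groups, so nothing is read from these low counts. Of the 930 probe sets always in the top 5%, 4 passed in the last test.

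The values between 4 and 2 rounds lay on the same side for all 10 probe sets, with a median difference of -0.61, compared with -0.05 for all probe sets and -0.48 for the 930 always in the top 5%. With the deposited values the median was -0.30 and 9 lay on that side, beside -0.09 for all probe sets and -0.15 for the 930. With median centering alone it was -0.24 and 8, beside -0.03 and -0.08. With quantile normalization it was -0.27 and 9, beside -0.03 and -0.13. Agtr1a was the probe set that had the opposite sign in these 3 settings, with 0.26 for the deposited values, joined by Aldh3a2 (0.02) under median centering. The largest single value was that of Anxa1 (1444016_at), -1.31 (SE 0.37), with an adjusted p of 0.0583. When replicate 2 of the 1 pg arrays after 4 rounds was left out, it was -1.63 with an adjusted p of 0.0123. When replicate 3 of them was left out instead, it was -1.03. The 10th to 90th percentile range, by which the main scaling divides, ran from 4.22 to 4.97 among the arrays, and the median lay closer to 0 in each of the 3 settings that do not divide by it.

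Between 0.1 and 10 pg after 4 rounds, Foxa2 differed by 1.10 (SE 0.69), Cfb by 1.09 and Anxa1 (1444016_at) by 1.00 (SE 0.52), and for these 3 each array of 0.1 pg lay above each array of 10 pg. Chrna1 differed by -0.63 (SE 0.38), again without overlap. These are 4 of 10 probe sets, a share near the 40.3% of all probe sets whose arrays did not overlap, so nothing is read from it. The other 6 probe sets differed by -0.15 to -0.01. None passed the threshold, and the smallest adjusted p was 0.154, for Cfb. The sign of Foxa2, Cfb, Anxa1 (1444016_at) and Chrna1 held under the other 3 scalings.

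Markers of cortical cells were measured in the same comparison. Of the 10 neuron markers 4 passed the threshold, all lower, and the median difference of the 10 was -0.60. Of the 7 astrocyte markers none passed the threshold (median difference -0.04). The differences were -5.38 for Eno2, the neuronal enolase (SE 0.89, adjusted p = 0.00165), -5.05 for Nefl, a neurofilament (adjusted p = 0.00141), -3.65 for Snap25, of synaptic vesicle fusion (SE 0.55, adjusted p = 0.00085), and -3.0 for Stmn2, a regulator of microtubules (adjusted p = 0.00718, limma for all). Eno2, which fell most of the 4, averaged 6.42 ± 0.25 at 10 pg and 1.04 ± 2.34 at 0.1 pg after 4 rounds (SD, n = 3). The other 29 genes of the plasticity list had a median difference of -0.19. Of these 29, 3 passed the threshold, all lower, where 8.86% of all probe sets passed. Among them, Sod1, a superoxide dismutase, fell by 5.12 (SE 0.63, adjusted p = 0.00021), and Rps29, a ribosomal protein, fell by 3.09 (SE 0.74, adjusted p = 0.017, limma for both). Among markers of other cells, Mbp, of myelin, rose by 2.99, and Kdr, of endothelium, fell by 2.97 (adjusted p = 0.026 and 0.0102). The leukocyte markers went both ways, Lcp1 higher by 1.88 and Cd53 with a difference of -3.57 (adjusted p = 0.049 and 0.00165), and Top2a, of dividing cells, rose by 1.77 (adjusted p = 0.0415). The median of all probe sets differed by 0.10, and by 0.20 with the deposited values. The other 6 of the 10 neuron markers did not pass the threshold, and the difference between the markers and the 9 genes was not tested, because the 9 were chosen for their rank.

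**Figure D4:**
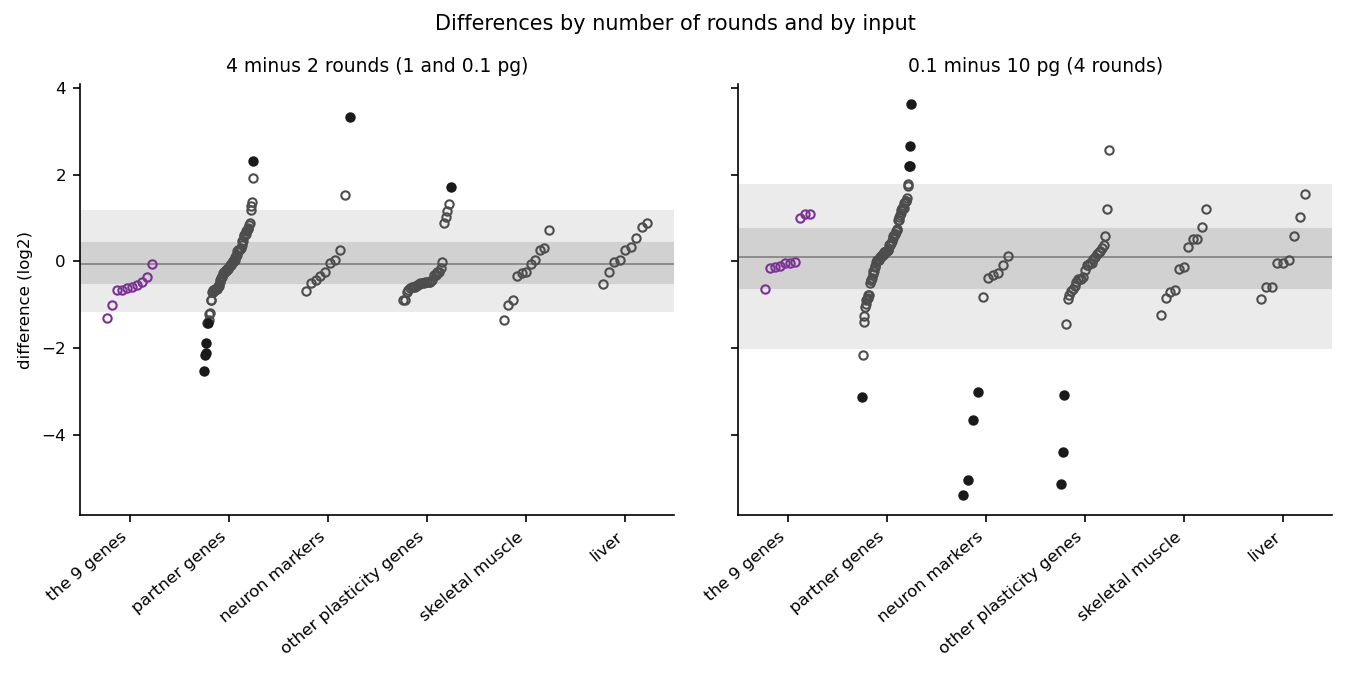
Differences in log2 between 4 and 2 rounds at 1 and 0.1 pg (left) and between 0.1 and 10 pg after 4 rounds (right), for the 10 probe sets of the 9 genes, the genes of their pathways and families, neuron markers, the other genes of the plasticity list, and skeletal muscle and liver markers. Filled points passed the threshold of 0.05 (limma, adjusted), grey bands hold the middle of all probe sets (25th to 75th and 5th to 95th percentile), and the grey line is their median. The 10 probe sets have 0 filled points. On the right, 4 of the 10 neuron markers are filled and lie between -5.38 and -3.0, and the median of the 10 is -0.60.

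In the other comparisons the calls among the markers were few. Snap25 rose by 3.34 after 4 rounds relative to 2 (adjusted p = 0.000775) and Rbfox3, a nuclear protein of neurons, was higher by 2.65 after amplification than in bulk (adjusted p = 0.0134). From 1 to 0.1 pg, Snap25 fell by 3.41 and Eno2 fell by 3.57 (adjusted p = 0.000386 and 0.00882). In the plasticity list, 1 of the 29 genes passed the threshold between 4 and 2 rounds, higher, beside 3.91% of all probe sets. Between 0.1 and 1 pg 2 passed, lower, beside 1.24%. These comparisons share arrays with each other and with those of the 9 genes.

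Whether the signal of these probe sets depends on the amount of their transcript was not tested, since all arrays carry the same RNA and none lacks it. Bulk mRNA and inputs as low as 0.1 pg gave levels within 1.78 of each other for each of the 7 probe sets always in the top 5%. Their choice by rank fixes this narrow range in part. Dilution does not by itself change the share of a transcript in the mRNA, so the range does not test it either. The top 5% of the bulk array held 8.66% of all genes. Of the markers it held 0 of the 11 skeletal muscle, 0 of the 9 liver and 0 of the 9 dividing cell markers. It also held 1 of the 8 leukocyte and 2 of the 8 epithelium markers, and nothing is read from these counts.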

How the data were processed

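Probe set values of 17 Affymetrix mouse arrays were used, 1 for bulk, 1 for 10 pg after 2 rounds and 3 for each of 5 other groups, assigned from the sample titles. The authors summarized the probes with RMA 2.0 (upper decile statistic, per the methods) and deposited log2 values. The median centering and range scaling that the methods describe are not in them, so both were applied here: the median of an array was subtracted from its values, which were then divided by the distance between their 10th and 90th percentiles and put back on a log2 scale with the mean of these distances, 4.63. Columns without a sample numbered 0. Controls (64) were left out, and 45037 probe sets remained, of which 34945 carry 1 gene symbol, 932 several and 9160 none in an array annotation that can be old. Where a gene of a list has several probe sets, that of the highest mean stands for it. List genes that did not match are not analysed here, and 1 gene of the lists beside Ect2 and Arhgdib is not reported here. Arrays give no counts, so their number limits the precision.

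Differences were tested in R 4.3.3 with limma 3.58.1 (two-sided, 7 group means over all 17 arrays, eBayes, Benjamini-Hochberg over 45037 probe sets, threshold 0.05). The single arrays are assumed to vary like the groups of 3. The script was tested on simulated data. Levels, ranks and correlations were computed with python 3.11.15, numpy 2.4.6, pandas 2.3.3 and scipy 1.17.1, and figures drawn with matplotlib 3.10.9. The members and lists were chosen with earlier results of these data known. Named are the 9 genes, the 2 genes with the highest correlation to each, and the highest and lowest gene of each pathway or family list. List genes past the threshold are named up to 3 per list and comparison. Exceptions are the 4 neuron markers named between 0.1 and 10 pg, and the plasticity list, of which not all such genes are named. Tubb3, Hnf4a, Chrnd, Fpr2, Ptprc and the markers always in the top 5% were named after their values were seen. Alternatives were other scalings, a filter on low values, other sets of arrays, the replicate number as a block, the methods' t-test, 1 probe set per gene, a false discovery rate of 0.1%, and other sizes of the top list. No sequence is shown, because those of the probes were not used here.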

Additional observations from a re-analysis of the deposited data

How the results depend on the processing

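Of the 9 genes, 7 were always in the top 5%, and also 7 with each array left out in turn, with genes ranked by the median over their probe sets and with the top 10%. The number was 5 when a gene's probe set of the highest mean was ranked among genes, and 2 with the top 1%. Between 4 and 2 rounds, the count past the threshold was 0, and 1 with no probe sets below the median (Anxa1 1444016_at). Leaving out 1 array gave 0 to 1, the 1 being without replicate 2 of 1 pg after 4 rounds. In the test for any difference the count was 2, and 1 with the deposited values, with median centering alone, with quantile normalization, with 1 probe set per gene (Cfb), without the array of 10 pg after 2 rounds (Anxa1 1444016_at) and with the replicate block. It was 0 at a false discovery rate of 0.1%. Leaving out 1 array gave 1 to 2. In the comparisons of input and of bulk the count stayed at 0. Over all probe sets, 1759 passed between 4 and 2 rounds, 853 when only the groups compared were fitted, 20 at that false discovery rate, 3 with the methods' t-test and 674 to 2872 with 1 array left out. Between 0.1 and 10 pg after 4 rounds, 3992 passed, and in the same order 8094, 294, 1580 and 1504 to 5215. Between 0.1 and 1 pg, 559 passed, 34 at that rate, 0 with the t-test and 242 to 891 with 1 array left out. Against bulk, 494 passed, 871 with median centering alone, 749 without the array of 10 pg after 2 rounds, 241 with the replicate block, 4 at that rate and 317 to 721 with 1 array left out. In the test for any difference 11492 passed, and 804 at that rate. The replicate block changed no other call of the 10 probe sets. Over all probe sets it left 1322 between 4 and 2 rounds and 8863 in the test for any difference. Deviations of arrays with the same replicate number had r from -0.20 to 0.14, against -0.19 to 0.26 for other numbers, so the numbers do not pair the arrays. The methods' t-test was not run against the single bulk array or over 7 groups. Amplified against bulk, 6 members lay above bulk and 4 below with the main scaling, 3 and 7 with the deposited values and with quantile normalization, and 1 and 9 with median centering alone (median difference -0.38).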
